A study of Danio rerio with 4 samples.

Results

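Keratins, the intermediate filament proteins of epithelia, were followed across the cells of adult zebrafish skin before and after wounding. The family was taken from the gene symbols, as every row whose symbol starts with krt and a digit, plus krtt1c19e, cyt1 and cyt1l. Of the 23 rows that matched, 22 held at least 50 unique molecular identifiers (UMIs) over the deposited cells and are described here, out of 25432 genes in all, and krt95 fell below that minimum with 3 UMIs. The study comprised 4 libraries of single cells, 1 each from skin wounds at 2, 4 and 6 days post wounding (dpw) and from unwounded skin, and each was made from the pooled cells of 3 adult wild-type fish. Per the labels, wounds of 2 mm were taken out with a punch of 4 mm, whereas unwounded skin was scraped off, so the effects of the wound and of the manner of collection cannot be told apart. With 1 library per condition there is no variation between fish to test. No p-value is given, and the 95% intervals in brackets cover counting error alone.

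A keratin filament is built from pairs of a type I and a type II chain, so an epithelial cell makes members of both types. In zebrafish, krt4, krt5 and krt8 are type II chains, while krt15, krt17, the krt18 genes, cyt1, krt1-19d and krtt1c19e are named as type I. In mammals the pair a cell makes depends on its place, with Krt5 and Krt15 in the basal layer, Krt8 and Krt18 in simple epithelia, and Krt17 in injured epidermis. In zebrafish, the krt4 promoter is widely used to drive transgenes in superficial epidermis and the krtt1c19e promoter to drive them in basal keratinocytes. Zebrafish skin does not form the dead cornified sheet of mammalian skin, and its outermost layer consists of living cells.

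After the study's limits on cells, 5802 to 8314 cells per library with a median of 3979 to 4190 UMIs were kept, and 10 to 17 cell barcodes were shared between any 2 libraries. Clusters were formed without any keratin gene and named by fixed markers that hold no keratin, so the keratin levels below took no part in either step. Names end in "-like" because they rest on transcripts. Of 7200 keratinocyte-like cells in 8 clusters, 2356 were basal-like (clusters 6 and 12, with 8 and 6 of the basal markers, among them tp63, itgb4 and col17a1b) and 2286 were superficial-like (clusters 8, 20 and 24, with 6 to 8 of the superficial markers, among them evpla, ppl and anxa1c). The remaining keratinocyte-like clusters 5, 13 and 32 had 0 basal and 0 or 1 superficial markers and are given by number. Cluster 20 was shallow, with a median of 1426.5 UMIs per cell, and held haemoglobin genes among its leading genes. Levels are given as CPM, a gene's UMIs scaled to a common total over the summed UMIs of a group, and since each transcript is counted once at its 3' end they need no scaling by gene length. Because keratin RNA is abundant in skin, free RNA can enter every droplet, and T lymphoid-like cells, which should not make keratins, serve as its measure throughout. Erythroid-like cells, with a median of 797 UMIs, held more keratin RNA. Over the 4 libraries they had 2113.5 CPM of krt5, against 562 CPM in T lymphoid-like cells. For shallow groups the T lymphoid-like level may therefore be too low a measure, which was not tested.

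Keratin transcripts were most concentrated in keratinocyte-like cells, and the pair krt91 and krt5 made up most of them in both layers. All 22 members together held 6.03%, 5.15%, 6.64% and 5.81% of the UMIs of superficial-like cells for unwounded skin, 2, 4 and 6 dpw, and 4.30%, 4.91%, 4.21% and 3.94% of the UMIs of basal-like cells in the same order. The share was higher in cluster 5, at 7.01%, 8.73%, 8.14% and 8.57%, and was 0.156% to 0.216% in T lymphoid-like and 0.318% to 0.863% in erythroid-like cells over the libraries. krt91, which lies in the same genome neighbourhood as cyt1 and krt17, measured 30558, 21312, 31673 and 32038 CPM in superficial-like cells and 23219.5, 17674, 20273 and 20989 CPM in basal-like cells for unwounded skin, 2, 4 and 6 dpw. krt5, a type II chain, measured 17596, 18964, 22036 and 16928 CPM in superficial-like cells and 15227, 17166, 14152 and 13570.4 CPM in basal-like cells. These 2 genes therefore did not mark a layer: their superficial-like over basal-like ratio was 1.21 to 1.56 for krt91 and 1.1 to 1.56 for krt5 over the 4 libraries. Both were lower in superficial-like clusters 20 and 24 than in the layer as a whole, with 4209 to 9875 and 9515 to 14980.1 CPM of krt91, and 5017 to 7022 and 6434 to 10925 CPM of krt5. After every cell was thinned to 500 UMIs, krt5 was found in 95.8%, 96.4%, 91.0% and 93.1% of basal-like cells, against 31.4%, 29.5%, 24.4% and 27.3% of T lymphoid-like cells.

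**Figure D1:**
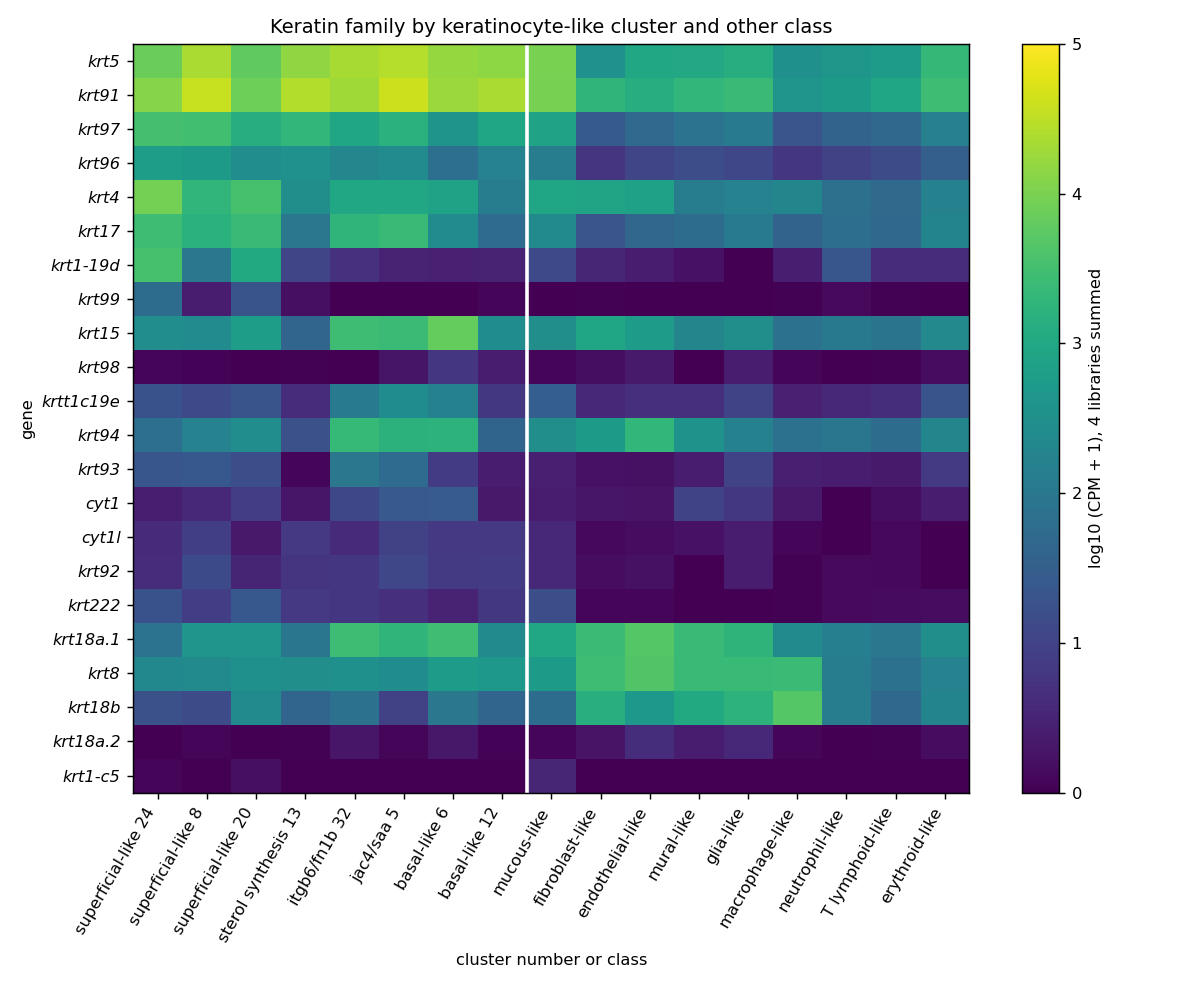
Level of the 22 keratins (rows) in the 8 keratinocyte-like clusters, left of the white line, and in 9 other classes (columns), as log10 of CPM + 1 over the summed 4 libraries. krt5 and krt91 are bright in every keratinocyte-like cluster, krt1-19d and krt99 stand out in superficial-like cluster 24, krt15 in basal-like cluster 6, and krt8 with the krt18 genes in fibroblast-like, endothelial-like, mural-like, glia-like and macrophage-like cells.

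The mix of genes differed widely between cell types, while the balance between type II and the other members varied less when the libraries were summed. With krt4, krt5 and krt8 summed as type II and the 19 other members, among them all those named as type I, summed against them, the others over type II came to between 1.09 and 2.17 in the 32 clusters and classes over the summed libraries, with a median of 1.73. The ratio was 1.72 in basal-like cluster 6 and 1.72 in superficial-like cluster 8, where krt91 and krt5 carried it, and 1.41 in cluster 24, where krt4 and krt5 shared the type II part. It was 1.83 in macrophage-like cells and 1.52 in endothelial-like cells, where krt8 with krt18b or krt18a.1 carried it. The lowest value belonged to mucous-like cells, at 1.09, and it differed between libraries, at 1.07, 0.849, 0.716 and 1.45 for unwounded skin, 2, 4 and 6 dpw. The highest value of a single library was 3.26, in unnamed cluster 22 at 6 dpw. T lymphoid-like cells, the measure of free RNA, gave 1.82, so a ratio near the median is not by itself a sign of expression.

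**Figure D2:**
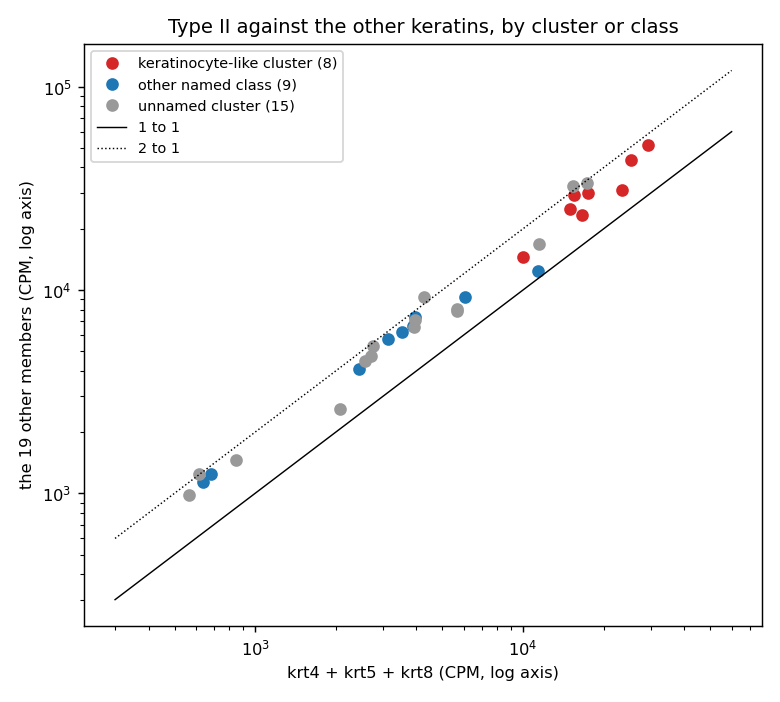
Summed level of krt4, krt5 and krt8 (x axis, CPM, log scale) against the summed level of the other 19 members (y axis, CPM, log scale), 1 point per cluster or class over the 4 libraries. The points lie between the solid line of equal levels and slightly above the dotted line of 2 to 1, with a median ratio of 1.73.

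Between the layers, 5 members were at least 4-fold higher in superficial-like than in basal-like cells in every library and 2 were at least 4-fold higher in basal-like cells, of the 20 with at least 50 UMIs over the compared sums. Of all 11518 genes with that many UMIs, 5.74% were called higher in superficial-like and 5.16% higher in basal-like cells. The median log2 ratio of the 20 members was 0.38, against -0.05 over all genes. The 5 superficial members were krt1-19d, krt99, krt17, krt96 and krt97, and the 2 basal ones were krt15 and krt98.

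krt1-19d separated the layers most widely among the well counted members. It measured 1238, 486, 675 and 1019.7 CPM in superficial-like cells for unwounded skin, 2, 4 and 6 dpw, against 1.5, 1.48, 1.42 and 3.33 CPM in basal-like cells, whose sums held 8, 12, 5 and 18 UMIs. The ratios were 827, 328, 477 and 306, with intervals whose lower limits lay at 187 or above, and basal-like cells did not rise above T lymphoid-like cells, at 4.22, 1.92, 1.49 and 5.21 CPM. Within the superficial-like cells it was uneven. Cluster 24, led by abcb5 and sult2st3, measured 2616 to 3874 CPM over the libraries, with the transcript in 67.4%, 44.4%, 60.9% and 66.2% of its thinned cells for unwounded skin, 2, 4 and 6 dpw, whereas the shallow cluster 20 measured 2197, 263, 705 and 927 CPM and cluster 8 43.8 to 136 CPM. krt99 followed the same order at a far lower level: over the 4 libraries it had 56.7 CPM in cluster 24, 18.6 CPM in cluster 20 and 1.40 CPM in cluster 8. With 0 UMIs in basal-like cells at 2 and 6 dpw, krt99 was at least 20.4-fold and at least 34.9-fold higher in superficial-like cells there, taking a floor of 3 UMIs per sum, and the ratio was 108 (19.2 to 4299) in unwounded skin and 11.3 (1.72 to 479) at 4 dpw.

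krt4, the type II chain used as a superficial marker, was also higher in superficial-like cells but missed the 4-fold limit at 2 dpw. It measured 4721, 2441, 3425 and 3158 CPM in superficial-like cells and 304, 807, 437 and 174 CPM in basal-like cells, for unwounded skin, 2, 4 and 6 dpw. The ratios were 15.5, 3.02, 7.85 and 18.2, so the lowest was that of 2 dpw, where basal-like cells had their highest level. With the 2 dpw library left out, krt4 and krt93 were called higher in superficial-like cells as well. Cluster 24 was again highest of the 3 superficial-like clusters, with 10032, 7404, 7697 and 8562 CPM, against 6656, 1418, 2594 and 3015 CPM in cluster 20 and 2386, 1476, 2456 and 1481 CPM in cluster 8. In unwounded skin, krt4 stood above krt5 in cluster 24, where krt5 measured 6434 CPM, and in cluster 20, where krt4 measured 6656 and krt5 5855 CPM.

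krt17, a type I chain, measured 1259, 2293, 3935 and 1272 CPM in superficial-like cells and 58.7, 222, 299 and 105 CPM in basal-like cells, with ratios of 21.4, 10.4, 13.2 and 12.1 for unwounded skin, 2, 4 and 6 dpw. It was not particular to the named layers, since cluster 5 measured 1287, 3525, 4395 and 1710.1 CPM. krt97 and krt96 are neighbours in RefSeq's gene order and were lower-ratio superficial members. krt97 measured 3498, 3327, 2448 and 2647 CPM in superficial-like cells and 842, 493, 422 and 636 CPM in basal-like cells, with ratios of 4.16, 6.74, 5.81 and 4.16, and krt96 had ratios of 4.31, 6.19, 6.47 and 4.34. Both sat close to the 4-fold limit in unwounded skin and at 6 dpw, and with every cell weighted equally neither was called. In contrast to krt4 and krt1-19d, krt97 was at a like level in cluster 8, at 2375 to 3691 CPM and in cluster 24, at 2864 to 3655 CPM, and it was present in cluster 13, at 1896 to 2619 CPM, whose leading genes ebp, msmo1 and cyp51 are enzymes of sterol synthesis.

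krt15, a type I chain of the basal layer in mammals, measured 231, 413, 413 and 218 CPM in superficial-like cells and 2013, 5789, 3920.4 and 2649.8 CPM in basal-like cells for unwounded skin, 2, 4 and 6 dpw. Its superficial-like over basal-like ratios were 0.115, 0.0714, 0.105 and 0.0823, so basal-like cells were higher in each library. This rested on 1 of the 2 basal-like clusters. The leading genes of cluster 6 include fn1a, col7a1, postnb, mdka and mmp30, and also col5a2a and col1a2, of which col1a2 is a fibroblast marker. Cluster 6 measured 4396, 8518, 5958 and 5115 CPM of krt15 and had the transcript in 42.5%, 76.8%, 67.2% and 43.9% of thinned cells. Cluster 12, led by ptgdsb.2, ptgdsb.1 and srd5a2b, measured 88.6, 363, 657 and 166 CPM and had it in 5.07%, 13.3%, 18.9% and 4.75%. With cluster 6 left out of the basal-like cells, neither krt15 nor krt98 was called, the median log2 ratio of krt15 was 0.29, and the count of basal members was 0. That split was tried after the values had been seen. krt98, next to krt15 in RefSeq's order and rare, held 1, 1, 0 and 1 UMIs in superficial-like cells and 18, 34, 19 and 8 UMIs in basal-like cells.

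krt18a.1 and krt94 had the same split between the basal-like clusters, without reaching the 4-fold limit between layers in every library. krt18a.1 measured 833, 5363, 1727 and 729 CPM in cluster 6 for unwounded skin, 2, 4 and 6 dpw, against 131, 359, 449 and 129 CPM in cluster 12. krt94, a neighbour of krt93 and krt15, measured 329.9, 3416, 772 and 266 CPM in cluster 6 and 11.8, 77.9, 76.6 and 11.9 CPM in cluster 12, beside T lymphoid-like cells at 11.5, 145, 64.6 and 20.1 CPM. The abundant krt91 did not share the split, with 14137 to 22616 CPM in cluster 6 and 20899 to 24708 CPM in cluster 12, and krt8, a type II chain, measured 416, 716, 543 and 430.2 CPM in cluster 6 and 446, 532, 529 and 389 CPM in cluster 12. krtt1c19e, the basal transgene promoter's gene, was 0.0786 to 0.258 times as high in superficial-like as in basal-like cells and missed the call at 2 dpw. In the basal-like cells it was found in cluster 6, at 262, 95.5, 209 and 151 CPM, more than in cluster 12, at 0.676, 9.60, 5.15 and 6.32 CPM, and a small share of cells carried it, 3.21%, 3.21%, 4.38% and 5.52% of the thinned cells of cluster 6.

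**Figure D3:**
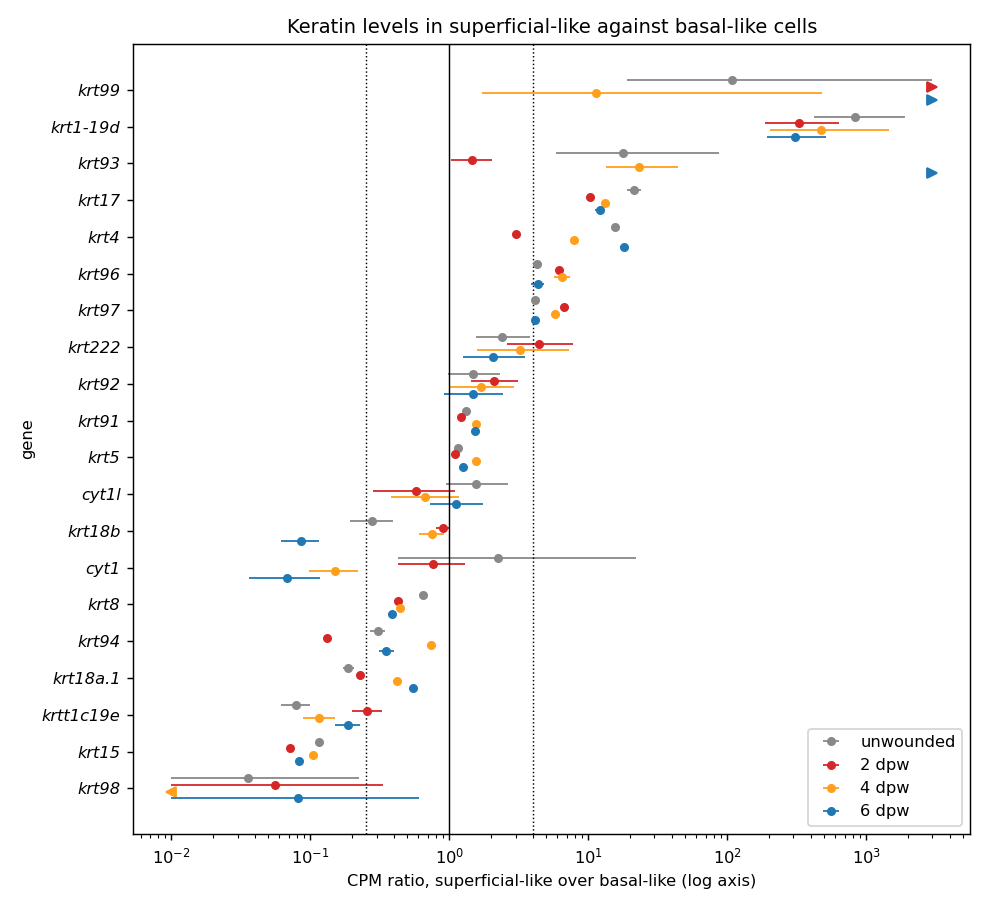
CPM ratio of superficial-like over basal-like cells (x axis, log scale) for the 20 members with at least 50 UMIs in both layers together, 1 point per library with its 95% counting interval, and arrows at the edge where the lower layer held 0 UMIs. The solid line marks equal levels and the dotted lines the 4-fold limits: krt1-19d, krt99, krt17, krt96 and krt97 lie right of the upper limit in all 4 libraries, and krt15 and krt98 left of the lower one.

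Outside the named layers, cluster 5 combined genes of both layers. It carried the highest keratin share of the 8 keratinocyte-like clusters at 2, 4 and 6 dpw. Superficial-like cluster 8 had the higher share in unwounded skin, at 7.13% against 7.01% in cluster 5. The leading genes of cluster 5 include jac4, saa and cxcl18b, and it numbered 358, 189, 252 and 525 cells for unwounded skin, 2, 4 and 6 dpw. In unwounded skin it held krt15 at 1569 CPM (1537 to 1602), krt17 at 1287 CPM (1258 to 1316) and krt97 at 2137 CPM (2099.8 to 2175), while krt1-19d was at 2.58 CPM there, below T lymphoid-like cells. Cluster 13 had little krt15, at 31.2 to 85.6 CPM, and little krt94, at 7.15 to 65.8 CPM, beside 11836 to 19377 CPM of krt5. Cluster 32, with 12 of the 13 keratinocyte markers and itgb6 and fn1b among its leading genes, measured 2739 CPM of krt15, 2794 CPM of krt18a.1, 2272 CPM of krt94 and 1901 CPM of krt17 over the 4 libraries. In this cluster 29.8% of the krt94 UMIs lay in 1 cell. Among the unnamed clusters, the shallow cluster 11 (1081 cells, median 993 UMIs, sharing jac4 and saa with cluster 5 among its leading genes) had 3521 CPM of krt94 and 3800.3 CPM of krt15, cluster 21, led by hsp70 genes, had 3815 CPM of krt15, and the dividing cells of cluster 31 had 1171 CPM of krt4 and 9480.0 CPM of krt5.

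Wound libraries were then compared with unwounded skin within each layer, where a member was called when its CPM ratio passed 2-fold in either direction and its counting interval excluded 1. In basal-like cells at 2 dpw, 8 of the 17 members with at least 50 UMIs were higher and 0 were lower, while 9.27% of the 7906 genes tested were higher and 5.63% lower, and the median log2 ratio was 0.60 for members and 0.10 for all genes. At 4 dpw, 5 of 15 members were higher and 0 lower, against 5.35% and 5.82% of all genes, and with TMM scaling (edgeR's trimmed mean of M-values) 5 were higher and 2, krt96 and krt97, lower. The members called higher include krt18b and cyt1 at 2 and 4 dpw and krt93 at 2 dpw, whose limits are given below. At 6 dpw, 2 of 16 were higher and 1 lower, against 3.18% and 3.91% of all genes, and the 2 were krt18b, at the level of T lymphoid-like cells, and cyt1, with most of its UMIs in 1 cell, so that neither is read as a change. The median log2 ratio there was -0.14 for members and -0.13 for all genes. The cluster mix of the layer shifted as well, since cluster 6 made up 45.5%, 62.8%, 63.3% and 49.2% of the basal-like cells for unwounded skin, 2, 4 and 6 dpw. For several members, values or calls within the clusters are therefore given beside those of the layer.

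krt94 and krt18a.1 differed most from unwounded skin among the abundant members. krt94 measured 154, 2299, 504 and 139 CPM in basal-like cells for unwounded skin, 2, 4 and 6 dpw, with ratios of 14.9 (13.9 to 16.0) at 2 dpw, 3.28 (3.02 to 3.56) at 4 dpw and 0.906 at 6 dpw. The level was high at 2 dpw and close to the unwounded level at 6 dpw. Within cluster 6 the ratio at 2 dpw was 10.4 (9.64 to 11.1). No change is read for cluster 12, whose levels were given above beside those of T lymphoid-like cells. The share of thinned basal-like cells with krt94 was 30.2% (26.7 to 33.9) at 2 dpw and 3.09% (1.87 to 4.78) in unwounded skin, against 6.67% (5.15 to 8.47) and 0.772% (0.371 to 1.41) in T lymphoid-like cells. krt18a.1, one of the partners of krt8, measured 445, 3689, 1236 and 430.0 CPM in basal-like cells, with ratios of 8.30 (7.96 to 8.65) at 2 dpw, 2.78 (2.64 to 2.92) at 4 dpw and 0.967 (0.913 to 1.02) at 6 dpw. Within clusters 6 and 12, whose levels were given above, krt18a.1 was called higher at 2 and 4 dpw. The part of the cluster mix in the layer's ratios was not tested. krt8 itself was not called at any stage, with ratios of 1.51, 1.24 and 0.948.

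krt15 at 2 dpw was called in the basal-like layer, with a ratio of 2.88 (2.82 to 2.94). Within cluster 6 its ratio was 1.94 (1.90 to 1.98), short of 2-fold. Within cluster 12, whose lower levels were given above, krt15 was called higher at 2 and 4 dpw. The mean T lymphoid-like level of krt15 over the libraries was 86.2 CPM. A mean does not show how free krt15 RNA differed between stages, so the calls in cluster 12 are not set against it here. krt4 was called in the basal-like layer at 2 dpw too, at 2.66 (2.52 to 2.81), and within cluster 6 its ratio was 2.14 (2.01 to 2.27). Within cluster 12 krt4 was not called at 2 dpw. krt17, known in mammals from injured epidermis, measured 58.7, 222, 299 and 105 CPM in basal-like cells for unwounded skin, 2, 4 and 6 dpw. The ratios were 3.77 (3.34 to 4.27) at 2 dpw and 5.09 (4.48 to 5.79) at 4 dpw. Within cluster 6 it was called higher at 2 and 4 dpw. Within cluster 12 the ratio at 2 dpw was 1.01 (0.756 to 1.34), and it was called higher at 4 dpw. Over the 4 libraries cluster 12 had 55.0 CPM of krt17, close to the 44.8 CPM of T lymphoid-like cells, so no change is read for cluster 12. The T lymphoid-like level of krt17 was 17.3, 71.0, 71.3 and 32.3 CPM by library, and basal-like cells were 3.39 times as high in unwounded skin. krt93, a neighbour of krt94, held 84 UMIs at 2 dpw and 3 in unwounded skin, a ratio of 18.5 (6.12 to 91.5), but 36.9% of the 84 lay in 1 cell. cyt1 was called at all 3 stages against 2 UMIs in unwounded skin, with ratios of 16.5 (4.34 to 140.2), 123 (33.4 to 1021) and 66.8 (18.1 to 557) at 2, 4 and 6 dpw, but 1 cell held 30.9% of its UMIs at 4 dpw and 83.7% at 6 dpw, and without the top cell of each sum fewer than 50 UMIs were left at 2 and 6 dpw and it was called at 4 dpw alone. At 6 dpw krt96 was the member called lower, at 0.460 (0.407 to 0.519).

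In cluster 6, 2 of the superficial members were lower in early wounds than in unwounded skin. krt97 measured 179, 192 and 601 CPM in cluster 6 at 2, 4 and 6 dpw, against 805 CPM in unwounded skin, with ratios of 0.223 (0.206 to 0.241), 0.239 (0.214 to 0.266) and 0.747 (0.699 to 0.798). krt96 had ratios of 0.307, 0.254 and 0.431 in the same cluster. In cluster 12 the ratios at 2 and 4 dpw were 1.28 and 0.905 for krt97 and of 1.47 and 0.887 for krt96. With cluster 12 left out, chosen after seeing the data, 6 of 14 members were higher and 3 lower at 2 dpw, and krt15 was no longer among the higher ones. Of the 6542 genes tested in that comparison, 643 were higher and 422 lower.

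In superficial-like cells, 3 of 18 members were higher and 3 lower at 2 dpw, while 6.67% of the 7512 genes tested were higher and 3.63% lower. At 4 dpw 5 were higher and 1 was lower, against 3.20% and 4.86% of all genes, and at 6 dpw 1 was higher and 2 were lower, against 2.31% and 4.12%, or 1 higher and 1 lower with TMM scaling. The members called higher include krt18b at 2 and 4 dpw and krt93 at 4 dpw, whose limits are given below. The median log2 ratio of the members was 0.07, 0.16 and -0.07 at 2, 4 and 6 dpw, beside 0.12, -0.03 and -0.13 over all genes. The layer's makeup differed, with cluster 24 at 25.4%, 13.1%, 16.5% and 21.0% and the shallow cluster 20 at 23.8%, 39.7%, 30.1% and 21.5% of superficial-like cells for unwounded skin, 2, 4 and 6 dpw.

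krt18a.1 was higher at all 3 stages in the layer as a whole. It measured 836, 522 and 237 CPM in superficial-like cells at 2, 4 and 6 dpw, against 83.7 CPM in unwounded skin, with ratios of 9.99 (9.21 to 10.8), 6.23 (5.72 to 6.79) and 2.83 (2.60 to 3.09). T lymphoid-like cells measured 60.7, 188, 91.8 and 59.0 CPM for unwounded skin, 2, 4 and 6 dpw, and superficial-like cells were 1.38 to 5.68 times above them. Cluster 8 measured 94.5, 967, 624 and 287 CPM and cluster 24 35.0, 216, 117 and 63.4 CPM. At 6 dpw krt18a.1 was called higher within cluster 8 but not within clusters 20 and 24. No change is read for cluster 24, whose levels were close to those of T lymphoid-like cells. krt17 was past 2-fold higher at 4 dpw, with a ratio of 3.13 (3.05 to 3.20), and reached 7.22 (6.93 to 7.52) in cluster 8. At 4 dpw it was called higher in clusters 8 and 24 but not in cluster 20. At 2 dpw krt17 was called higher in cluster 8 and lower in the shallow cluster 20, and was not called in cluster 24. Its share of thinned superficial-like cells was 26.0%, 40.4%, 46.8% and 26.5% for unwounded skin, 2, 4 and 6 dpw. krt94 had ratios of 6.49 (5.79 to 7.29) and 7.93 (7.10 to 8.88) at 2 and 4 dpw, from 46.9, 305, 372 and 49.2 CPM for unwounded skin, 2, 4 and 6 dpw, beside 11.5, 145, 64.6 and 20.1 CPM in T lymphoid-like cells, which were also higher at 2 and 4 dpw. At 4 dpw 40.0% of its UMIs lay in 1 cell, and without the top cell of each sum the ratio was 7.88 (6.83 to 9.12). krt93 had a ratio of 8.59 (6.75 to 11) at 4 dpw, with 45.0% of its UMIs in 1 cell, and of 0.268 (0.160 to 0.433) at 6 dpw.

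The superficial members krt1-19d and krt99 were lower at 2 dpw. In superficial-like cells krt1-19d had a ratio of 0.393 (0.374 to 0.412) and krt99 of 0.373 (0.247 to 0.547), and krt99 stayed lower at 4 dpw, at 0.158 (0.0847 to 0.273). Within cluster 24, where both are highest, the ratios at 2 dpw were 0.685 (0.651 to 0.720) for krt1-19d and 0.569 (0.352 to 0.881) for krt99. krt1-19d was also lower within cluster 8, at 0.436 (0.359 to 0.526), and within cluster 20, at 0.120 (0.0973 to 0.146), and the part of the cluster mix in the layer's ratio was not tested. cyt1l, a rare gene, held 13 UMIs at 2 dpw and 56 in unwounded skin. The pooled clustering without integration called 0 of these 3 lower. krt4 moved in opposite directions in the layers at 2 dpw, with a ratio of 0.517 (0.506 to 0.528) in superficial-like cells, which did not pass 2-fold, and 2.66 (2.52 to 2.81) in basal-like cells. krt96 was lower at 6 dpw in both layers, with a ratio of 0.463 (0.442 to 0.485) in superficial-like cells, where it lost the call with TMM scaling. Within the superficial-like clusters it was called lower at 6 dpw in clusters 8 and 20 but not in cluster 24.

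Cluster 5 showed a wider stage contrast of krt94 than either layer. It measured 76.3, 6522, 2653 and 169.6 CPM for unwounded skin, 2, 4 and 6 dpw, with ratios of 85.5 (77.8 to 94.1) at 2 dpw, 34.8 (31.6 to 38.3) at 4 dpw and 2.22 (2.00 to 2.48) at 6 dpw, and the transcript was in 2.51%, 55.0%, 28.6% and 3.62% of its thinned cells. krt18a.1 measured 754, 5474, 2313 and 877 CPM, krt15 1569, 4817, 3765 and 1762 CPM and krt17 1287, 3525, 4395 and 1710.1 CPM in the same cluster. All 4 genes were above the unwounded level at 2 and 4 dpw, and at 6 dpw krt94 was still 2.22 times as high. krtt1c19e ran differently, with 46.9, 114, 148 and 551 CPM and a ratio of 11.7 (10.4 to 13.3) at 6 dpw, in 1.40%, 2.12%, 1.98% and 8.38% of thinned cells. krt4 was lower at 6 dpw, with a ratio of 0.319 (0.307 to 0.331). In the pooled clustering without integration, leading genes of cluster 5 lay in different clusters. jac4 and saa led 1 of 125, 791, 578 and 380 cells for unwounded skin, 2, 4 and 6 dpw. cxcl18b led another of 537, 166, 253 and 730 cells. The part of such a cell mix in the ratios of cluster 5 was not tested. Cluster 32 had the same order of libraries for krt94 as cluster 5, at 20, 4436, 2717 and 108 CPM, from 79, 46, 47 and 77 cells. However, 29.8% of the krt94 UMIs of cluster 32 over the 4 libraries lay in 1 cell. The unnamed shallow cluster 11 measured 1011, 6942, 2798 and 607 CPM of krt94, also highest at 2 dpw.

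The study's limits on cells, among them at most 30000 UMIs per cell, changed the levels of these genes. Over all deposited cells of a library, with no limit on cells, krt94 measured 206, 1586, 805 and 327 CPM for unwounded skin, 2, 4 and 6 dpw, against 147, 1113, 579.6 and 333 CPM over the kept cells. krtt1c19e measured 28.1, 38.5, 52.8 and 170.4 CPM over deposited and 26.6, 21.3, 25.9 and 111 CPM over kept cells. With and without the limits, krt94 was highest at 2 dpw and krtt1c19e at 6 dpw. In sums over whole libraries, more cells of a type and more RNA per cell cannot be told apart.

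**Figure D4:**
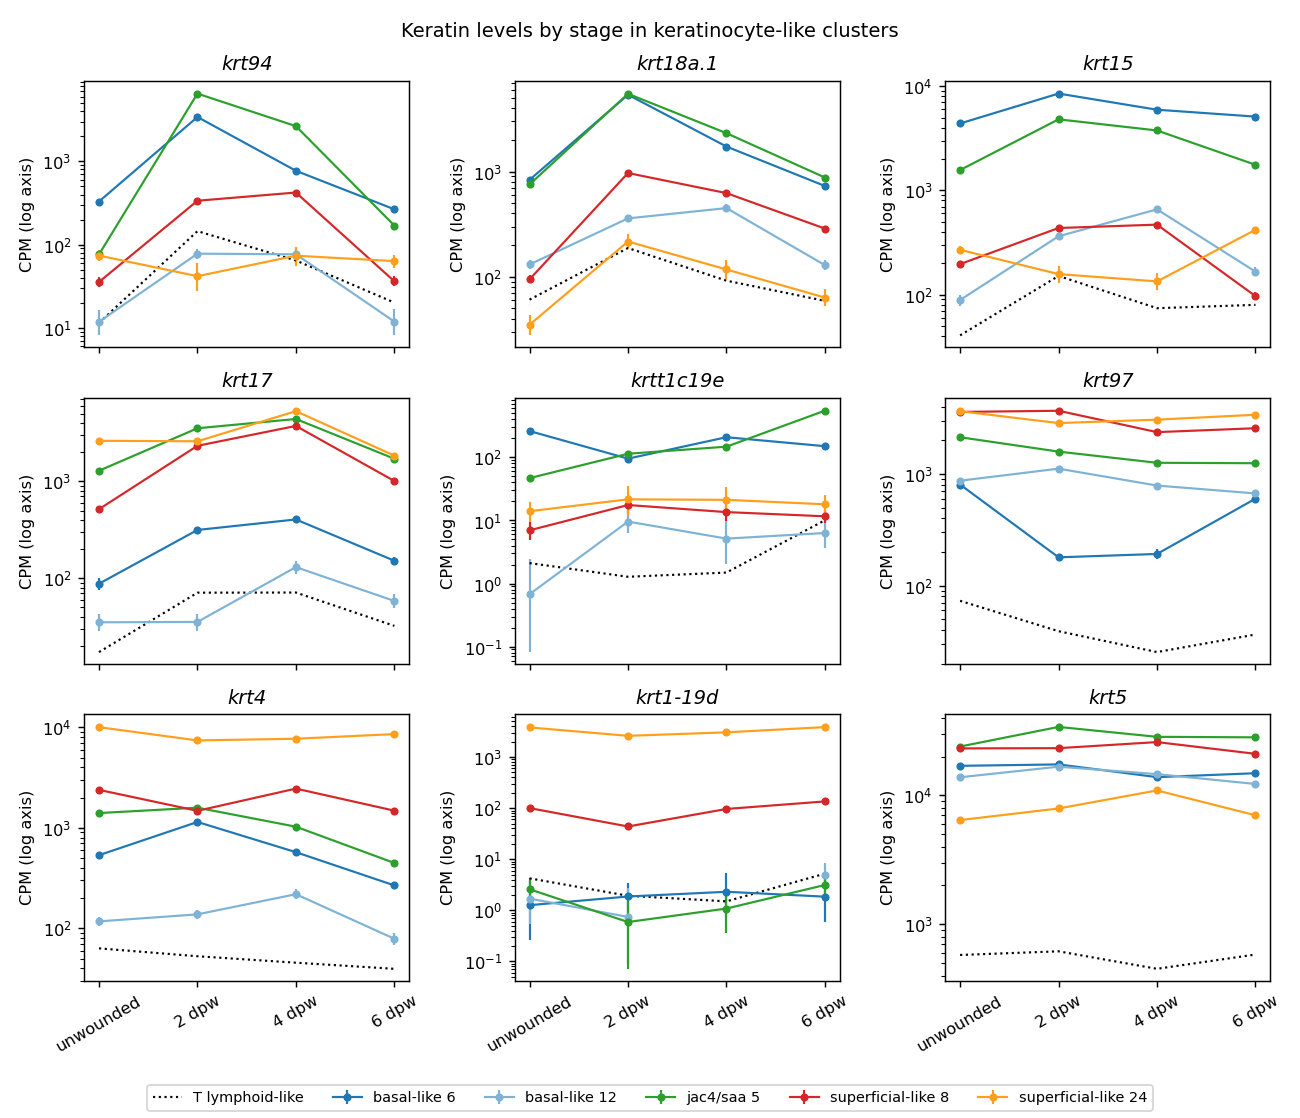
CPM (y axis, log scale) of 9 keratins by stage (x axis) in 5 keratinocyte-like clusters, with 95% counting intervals, and in T lymphoid-like cells as the measure of free RNA (dotted). Levels of 0 are not drawn. krt94 and krt18a.1 peak at 2 dpw in clusters 5 and 6, krt97 is low at 2 and 4 dpw in cluster 6, krtt1c19e is highest at 6 dpw in cluster 5, and krt5 stays within 2-fold of its unwounded level in each.

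krt18b passed the 2-fold limit in both layers, but its level there was 0.115 to 1.72 times the T lymphoid-like one in superficial-like and 0.720 to 1.90 times in basal-like cells, and no change is read from it. It measured 5.63, 108, 40.1 and 5.69 CPM in superficial-like cells and 20.2, 119, 53.5 and 66.7 CPM in basal-like cells for unwounded skin, 2, 4 and 6 dpw, beside 14.1, 62.4, 74.3 and 49.7 CPM in T lymphoid-like cells, and with the T lymphoid-like level subtracted its 4 dpw direction in basal-like cells turned. Its highest levels lay in classes other than keratinocyte-like cells. In macrophage-like cells krt18b measured 5119, 4633, 5417 and 4806 CPM and was found in 77.5%, 80.6%, 85.2% and 78.2% of thinned cells, against 0.772%, 2.15%, 2.77% and 1.33% of T lymphoid-like cells, and median depths were 9990.5 UMIs in macrophage-like and 2140.0 UMIs in T lymphoid-like cells. The level was 72.9 to 364 times that of T lymphoid-like cells. Per 100 krt5 UMIs, macrophage-like cells held 837 to 1801 krt18b UMIs over the libraries, T lymphoid-like cells 2.43 to 16.5 and keratinocyte-like cells 0.0587 to 0.448, so the 2 genes were not in 1 ratio across the classes of a library.

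krt8, the type II chain that pairs with keratin 18 in mammals, was likewise higher in several other classes than in keratinocyte-like cells. It measured 3308, 2008, 3612 and 3251 CPM in macrophage-like, 3195, 3879, 4817 and 4457 CPM in endothelial-like and 3220.2, 2824, 2652 and 2819 CPM in fibroblast-like cells for unwounded skin, 2, 4 and 6 dpw, against 338, 473, 329 and 235 CPM in keratinocyte-like cells. These ranges did not overlap with the keratinocyte-like one, and T lymphoid-like cells measured 59.0 to 98.6 CPM. The classes differed in which krt18 gene went with it. Macrophage-like cells had krt18b and little krt18a.1, at 178 to 289 CPM, which was 1.12 to 4.82 times the T lymphoid-like level. Endothelial-like cells had krt18a.1, at 2916, 4869.7, 4583 and 4904 CPM, and less krt18b, at 192 to 565 CPM. Fibroblast-like cells had both, with krt18a.1 at 1949.8 to 3070.0 CPM and krt18b at 1060.1 to 2012 CPM, and mural-like and glia-like cells did too, with 680.3 to 1198 and 1342 to 1865 CPM of krt18b. Neutrophil-like cells, with 5.46 to 155 CPM of krt18b and 76.4 to 218 CPM of krt8, did not share the macrophage-like levels. Among unnamed clusters, cluster 30 had 4079.9 CPM of krt18b and 2191 CPM of krt8, and cluster 29, led by the pigment gene gch2, had 5149 CPM of krt8. Cluster 30 had 7 of the 8 macrophage markers and 4 dividing markers. It was left unnamed because the B cell marker igic1s1 was among its leading genes, beside igl3v5.

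krt94 was shared between keratinocyte-like and endothelial-like cells. Endothelial-like cells measured 1336, 1432, 1862 and 2903 CPM for unwounded skin, 2, 4 and 6 dpw, 9.86 to 144 times the T lymphoid-like level, from 43, 296, 438 and 362 cells. Their highest level was that of 6 dpw, whereas keratinocyte-like cells measured 67.7, 2467, 1136 and 96.6 CPM with the highest at 2 dpw. Fibroblast-like cells held krt15 at 591, 417, 929 and 1257 CPM and krt4 at 887, 1024, 743 and 772 CPM, and both genes were above the T lymphoid-like cells, by 2.77 to 15.8 and 14.0 to 19.5 times over the libraries. Their krt91 level was 3479, 787, 711 and 3494 CPM, lower at 2 and 4 dpw than in unwounded skin and at 6 dpw. The part of free RNA in these values was not tested. Among named classes, mucous-like cells had the krt91 and krt5 level nearest to the keratinocyte-like cells, at 4301 to 12631 and 8089 to 11169.7 CPM. They also had the highest mean level of krt222 among these classes, at 18.7, 18.8, 9.79 and 10.1 CPM. Over the 4 libraries, superficial-like clusters 20 and 24 had 23.2 and 17.3 CPM of krt222, so it was not particular to mucous-like cells.

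**Figure D5:**
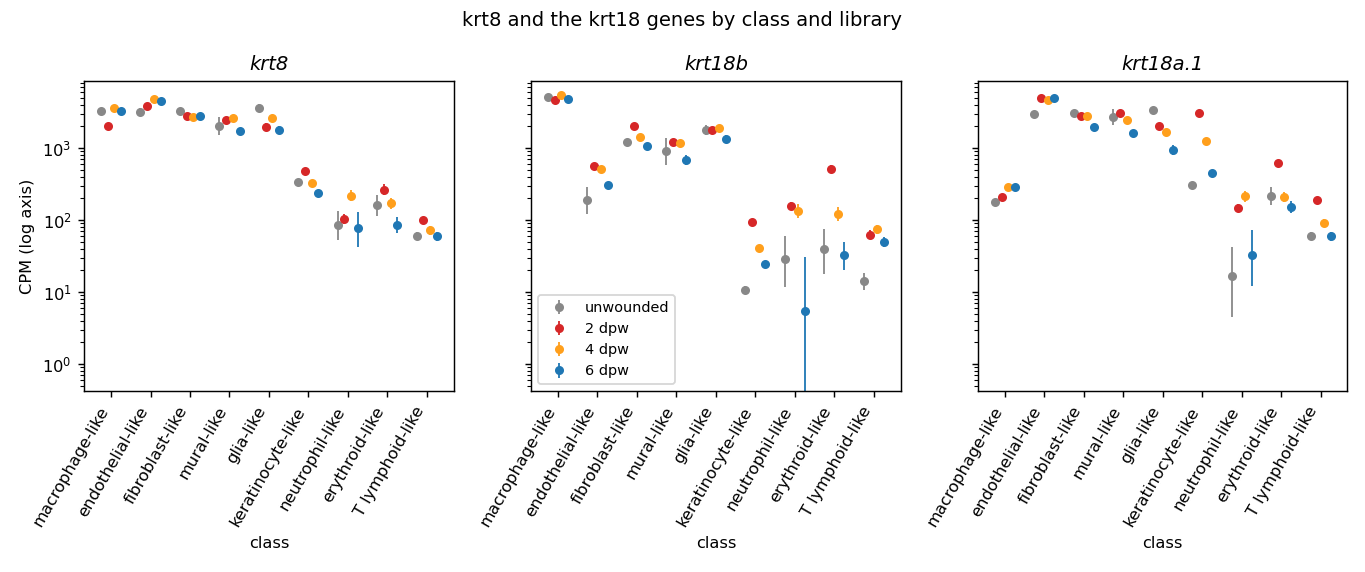
CPM (y axis, log scale) of krt8, krt18b and krt18a.1 in 9 classes (x axis), 1 point per library with its 95% counting interval. Macrophage-like cells pair high krt8 with krt18b, endothelial-like cells pair it with krt18a.1, and fibroblast-like, mural-like and glia-like cells have both. The T lymphoid-like points are the measure of free RNA used here, and the shallow erythroid-like cells are drawn as well.

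The other members were rare. krt92, cyt1l and krt222 stayed at 8.14, 6.65 and 6.07 CPM in keratinocyte-like cells over the 4 libraries, and none of these 3 was called between the layers, with superficial-like over basal-like ratios of 1.48 to 2.12 for krt92, 0.577 to 1.56 for cyt1l and 2.05 to 4.45 for krt222. krt93 varied widely between libraries, with ratios of 17.7, 1.45 and 23.2 for unwounded skin, 2 and 4 dpw, and was at least 4.80-fold higher in superficial-like cells at 6 dpw, where basal-like cells held 0 UMIs. krt18a.2, the neighbour of krt18a.1, had 16 UMIs in endothelial-like and 2 in glia-like cells, and krt1-c5 had 14 UMIs in mucous-like cells, of which 78.6% lay in 1 cell. Neither reached 50 UMIs in the layers. krt98 had 6 UMIs in endothelial-like and 1 in glia-like cells, too few to place it there. By RefSeq's order of coding genes, krt93, krt94, krt98, krt15 and krt99 lie in 1 neighbourhood with at most 5 other genes between neighbours, and they included both basal members and the superficial member krt99, while krt96 and krt97 were neighbours that were called alike. UMIs of near-identical copies may be split between genes, and this was not tested because no sequence was used.

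The family was set beside 3 lists of genes of the filament system and the epidermis. Of the 14 other intermediate filament genes, 6 were measured well enough between the layers, and synm, which codes for synemin, was higher in basal-like cells, at 0.359 to 1.42 CPM in superficial-like and 5.56 to 7.36 CPM in basal-like cells. vim stayed at 0.606 to 4.55 and 5.56 to 10.1 CPM, and lmna, a nuclear lamin, at 295 to 362 and 369 to 479 CPM. Of 12 genes for proteins that link keratins to junctions, 11 were measured, and ppl, evpla and evplb (periplakin and envoplakins) were higher in superficial-like cells, which is no independent result because the 3 genes are among the markers that named the layer. plecb, a plectin gene, measured 995 to 1131 CPM in superficial-like and 2831 to 3307 CPM in basal-like cells without passing 4-fold. Of 15 epidermal transcription factors, all 15 were measured, with grhl1, grhl3, ovol1a and elf3 higher in superficial-like cells and tp63 and grhl2b in basal-like cells, and of these grhl1, grhl3 and tp63 were layer markers. elf3 measured 988 to 1151 CPM in superficial-like and 94 to 128 CPM in basal-like cells. By stage, klf17 was higher than in unwounded skin in basal-like cells at 2, 4 and 6 dpw and in superficial-like cells at 4 and 6 dpw. In superficial-like cells klf17 measured 28.4, 43.4, 118 and 78.5 CPM for unwounded skin, 2, 4 and 6 dpw. klf4 was lower in both layers at all 3 stages. At 2 dpw ppl, evplb and pkp2 were lower in basal-like cells, where 13.2 to 36.1 CPM of ppl was measured. In superficial-like cells 0 of 11 linker genes were called at any stage, and 0 of the other intermediate filament genes were called by stage in either layer.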

How the data were processed

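Single-cell libraries were made by the authors with 10x Genomics 3' chemistry, and the deposited matrices hold UMI counts per gene and cell, with GRCz11 and Seurat 4.3.0 named in the submitters' processing notes. The study's limits were applied (500 to 30000 UMIs, 200 to 4500 genes, under 25% mitochondrial UMIs), which kept 29185 of 36239 deposited cells. Cells were clustered in Seurat 5.3.0 after sctransform 0.4.2 and integration, without keratin genes. Scrublet marked 1 cell in all, which was taken as a failed call, so no doublets were removed. Counts were summed per cluster and library and given as CPM with exact Poisson intervals, CPM ratios with exact conditional intervals, and shares of cells after thinning to 500 UMIs with Clopper-Pearson intervals. Each library pools 3 fish, so no test between conditions was run. A call needs at least 50 UMIs over the compared sums. Simulated counts with counting error alone were used to check the calculation of the 2 dpw basal-like ratios over 7906 genes. Of 200 genes changed by more than the 2-fold limit, 99% were called, and 95.9% of intervals held the true ratio. The simulation had no variation between cells or fish, so it cannot show how the reported ratios hold up against these. Full values were given for the members with the highest levels or the widest called ratios in each layer and for those highest outside keratinocyte-like cells. Members and lists were chosen with earlier results of these data known. Gene order came from RefSeq (GRCz12tu), in which all 22 members matched. Alternatives changed scaling, limits, clustering, layer definition and the libraries used.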

Additional observations from a re-analysis of the deposited data

Results flagged for a closer look

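krt4 at 2 dpw went in opposite directions in the layers relative to unwounded skin, which is why it is listed here: the ratio was 2.66 in basal-like cells and 0.517 in superficial-like cells. With 1 library per condition, the difference between the layers was not tested. In CPM, basal-like cells measured 807 at 2 dpw against 304 in unwounded skin, and superficial-like cells 2441 against 4721. The shallow cluster 20 made up 39.7% of superficial-like cells at 2 dpw and 23.8% in unwounded skin, and cluster 24, with the highest krt4 level, 13.1% and 25.4%. Among basal-like cells, cluster 6 made up 62.8% at 2 dpw and 45.5% in unwounded skin. The part of these shifts in the result was not tested.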

How the results depend on the processing

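Of 119 alternative counts of called members, 110 stayed within 1.5 times the reported count. Of 552 alternative values of 38 called member ratios, 503 kept direction and call, 42 lost the call and 7 reversed. For 16 of the 38 ratios, no alternative kept the direction and lost the call. Ratios that reversed were not taken out of these 16. Placing cells in a layer by their own marker UMIs did not separate the layers, since it put 1191 to 2362 cells per library in the superficial and 39 to 128 in the basal group, so nothing about the layers is read from it. Its values were as follows: the superficial members numbered 2 (krt1-19d and krt17), the basal members 0, the members called at 2 dpw in basal-like cells 4, and those called in superficial-like cells 10 at 4 dpw and 5 at 6 dpw. In the same groups the log2 ratio reversed for krt15 between layers (0.0068), for krt17 at 2 dpw (-0.019) and krt96 at 6 dpw (0.095) in basal-like cells, and for cyt1l at 2 dpw in superficial-like cells (0.024). The mean of per-cell CPM left 3 superficial members. Without cluster 6, chosen after seeing the data, the basal members numbered 0, the log2 layer ratio of krt15 was 0.29 and 4 of 11 members were called at 2 dpw in basal-like cells. Of the 5148 genes tested at 2 dpw in these remaining cells, 195 were higher and 213 lower. Clustering without integration left 3 members called at 2 dpw in superficial-like cells and turned krt18b at 4 dpw there (-0.21). Subtracting the T lymphoid-like level turned krt18b at 4 dpw in basal-like cells (-5.46). With each library left out in turn, the superficial members numbered 5 to 7 and the basal members 2 to 2. TMM factors moved all log2 ratios by -0.20 at 2 dpw and 0.12 at 6 dpw in superficial-like cells and by 0.14 between layers at 4 dpw. The causes were not tested. No paired analysis was possible because each condition is 1 library. The lowest counted members (krt98, krt99, krt93 and cyt1 in basal-like cells) rest on few UMIs or on single cells.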
